A study of Mus musculus with 48 samples.

Results

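Transcript levels were compared between the male mice of a pair of lines bred for high or low ethanol preference. The members were the 24 libraries, of 48 in all, whose label gives gender M: 12 from High and 12 from Low ethanol preference mice. All came from the heterogeneous stock-collaborative cross (HS-CC), an outbred mouse stock, at selection generation 4, and the other 24 libraries were from females of the same lines. The shell of the nucleus accumbens was cut out by laser microdissection, and poly(A) RNA of each mouse gave 1 library. The labels name no drug or ethanol treatment for any group, and ages, families and litters are not given in the sources used here. They name 1 High and 1 Low selection, so selection and drift between these populations cannot be told apart.

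The nucleus accumbens shell is the part of the ventral striatum most closely tied to reward and aversion, and to ethanol drinking in rodents. Most of its neurons are GABAergic medium spiny neurons, which carry either dopamine D1 or dopamine D2 receptors, among sparse interneurons and glia. An outbred stock keeps many founder alleles, so a transcript can be on in some mice and off in others of the same line.

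Deposited totals of the male libraries ran from 13579931 to 14456195 normalised counts, and genes with a value above 0 from 20006 to 20846. Reads before the authors' scaling were estimated at 12431093 to 18690667 per library. All 24 had more Ddx3y, a Y-linked helicase, than Xist, the RNA that silences an X chromosome. High replicate 1 stood apart by its median Spearman correlation with the other males, 0.9728 against a limit of 0.9743. Markers of medium spiny neurons were strong in all male libraries, with Penk medians of 30767 in High and 29590.5 in Low and Drd2 medians of 3469.5 and 3539.5. Slc17a7, a vesicular glutamate transporter of cortical pyramidal neurons, was 12.5 at the median of High and 13 at that of Low but reached 1626 and 3886. The summed cortical markers ran from 1356 to 4376 in High and from 1245 to 7828 in Low. By mean log2 level they were highest in 5 libraries, High replicates 1 and 10 and Low replicates 5, 6 and 8.

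The first question was which genes differed between High and Low males. The clearest differences were lower values in High of Nudt13, Rad51d, Slc38a5, Chrd and Thpo and higher values of Mpeg1, Wdr37 and Oaf, but none passed the correction over all genes. By limma, 0 of 14717 genes (0%) were called at an adjusted p under 0.05, and the smallest adjusted p was 0.243. At an unadjusted p under 0.05 there were 841 genes (5.71%), 404 higher (2.75%) and 437 lower (2.97%) in High. For 0 genes (0%) did the 12 High and 12 Low values fail to overlap. The median 95% confidence interval of a log2 difference reached 0.195 to each side, so differences under about 1.14-fold were within the error for a typical gene. Without High replicate 6, 4 genes were called at an adjusted p of 0.0438: Rad51d, Nudt13 and Ovgp1 were lower in High and A930005H10Rik was higher, with log2 differences of -0.40, -0.78, -1.57 and 0.94. The 20 genes described next are the 10 lower and 10 higher in High with the smallest p at a mean of 70.3 normalised counts or more.

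Nudt13, a member of the Nudix hydrolase family on chromosome 14 (mm9 start of its first listed exon 21113912), ran from 76 through a median of 110.5 to 182 in High and from 135 through 194 to 329 in Low. All 12 High mice lay below the Low median and 9 lay below the lowest Low mouse, yet the groups overlapped. The log2 difference was -0.73 ± 0.14 (SE; limma p = 2.43e-05, adjusted p = 0.243). Rad51d, a gene of homologous recombination on chromosome 11 (mm9 start 82685466), ran from 195 through 231 to 296 in High and from 234 through 310.5 to 346 in Low. All 12 High mice were again below the Low median, 7 of them below every Low mouse. Its log2 difference was -0.37 ± 0.08 (SE; limma p = 4.79e-05, adjusted p = 0.243). Slc38a5, an amino acid transporter gene on the X chromosome (mm9 start 7848259), ran from 36 through 54 to 81 in High and from 66 through 86.5 to 121 in Low. Its log2 difference was -0.54 ± 0.12, and 8 High mice lay below every Low mouse. Abhd11, a mitochondrial hydrolase gene, had medians of 411 in High and 523.5 in Low, with all 12 High mice below the Low median.

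The other genes with lower values had wide ranges in both groups. Upb1, the last enzyme of pyrimidine breakdown and a gene of the D2 medium spiny neuron list, ran from 72 through 195.5 to 408 in High and from 199 through 390.5 to 561 in Low. Its log2 difference was -0.96 ± 0.23 (SE; limma p = 0.000246, adjusted p = 0.325). Ovgp1, an oviductal glycoprotein gene, ran from 13 through 66 to 339 in High and from 94 through 168.5 to 303 in Low. The highest male value of Ovgp1 was thus in a High mouse, replicate 6, although 9 High mice were below every Low mouse. The log2 difference of Ovgp1 ranged from -1.57 to -0.92 over the 37 alternatives run. Sidt1, a transmembrane protein gene of the SID1 family, had medians of 96 in High and 164.5 in Low, and lies on chromosome 16 (mm9 start 44240293).

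Of the 10 genes with higher values in High, Mpeg1 and C1qc are genes of macrophages and microglia. Mpeg1, which encodes perforin-2, ran from 53 through 104 to 229 in High and from 18 through 49 to 142 in Low, with all 12 High mice above the Low median. Its log2 difference was 1.05 ± 0.26 (SE; limma p = 0.000359, adjusted p = 0.325). C1qc, a chain of complement C1q, had medians of 272.5 and 198 and a log2 difference of 0.56 ± 0.15. Of the 13 tested genes of the microglia list 6 were above 0 (7 after quantile normalisation) and 7 below, with a median of -0.01 and a log2 difference of -0.25 for Trem2, a microglial receptor. Without the 5 libraries richest in cortical markers 9 of the 13 were above 0, with a median of 0.05, and with 1 library left out 3 to 8 were. Its summed level ran from 5490 to 8210 in High and from 5622 to 8401 in Low. Mpeg1 itself was not in that list.

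Of the remaining higher genes all but Tcerg1l had log2 differences of 0.34 or less. Gpt2, the mitochondrial alanine aminotransferase, ran from 600 through 734.5 to 860 in High and from 481 through 580 to 693 in Low, with 8 High mice above every Low mouse. Oaf ran from 117 through 143.5 to 188 and from 91 through 116.5 to 129, also with 8 High mice above every Low mouse. Cndp2, a cytosolic dipeptidase, had medians of 985.5 and 801.5, with 9 High mice above the highest Low mouse. Wdr37, a WD-repeat protein gene, Capn2, the catalytic subunit of a calpain protease, Nab1, a co-repressor of Egr transcription factors, and Zfp239, a zinc finger gene, had log2 differences of 0.28, 0.22, 0.31 and 0.25. Tcerg1l ran from 366 to 915 in High and from 275 to 566 in Low, at a log2 difference of 0.55 ± 0.15. In every case the groups overlapped and no adjusted p was under 0.05.

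**Figure D1:**
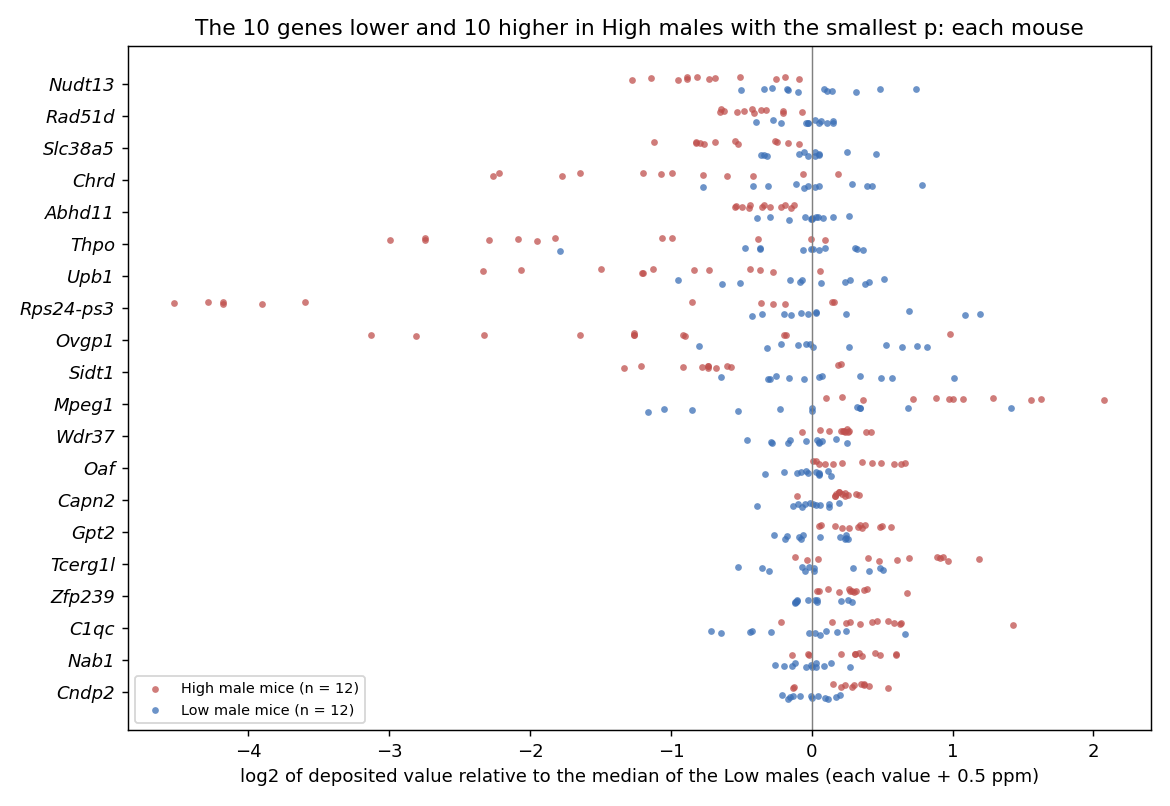
Deposited values of the 20 genes in each male mouse, as log2 of the value relative to the Low male median, with 12 points per group in red for High and blue for Low. The groups overlap for all 20 genes, and 6 High mice sit far to the left for Rps24-ps3.

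Among the autosomes and the X, chromosome 16 had the largest share of genes with a small p. Of 445 tested genes on it, 52 (11.7%) were at an unadjusted p under 0.05, 23 higher and 29 lower in High, against 5.71% of all genes. The other autosomes and the X ranged from 2.99% to 8.43%. The share on chromosome 16 stayed between 8.99% and 14.4% when each of the 24 libraries was left out in turn, and was 11.2% without the 5 libraries richest in cortical markers. Genes that lie near each other can be inherited together, so these are not independent counts and no test was made of the share. In the stretch from 10 to 50 Mb (mm9 starts), whose bounds were set after the counts along the chromosome were seen, so that its contrast with the rest is a description, 41 of 270 genes (15.2%) were at p under 0.05, and on the rest of the chromosome 11 of 175 (6.29%). In females 7 of those 270 (2.59%) and 11 of the 445 (2.47%) were at p under 0.05, although 46 of the 52 male genes had the same sign in females. The difference between the sexes in these shares was not tested.

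Chrd and Thpo were the genes with the smallest p on chromosome 16. Chrd encodes chordin, a secreted antagonist of bone morphogenetic proteins, and Thpo encodes thrombopoietin, the growth factor of platelet precursors. Chrd (mm9 start 20733200) ran from 25 through 68 to 168 in High and from 83 through 146.5 to 257 in Low, a log2 difference of -1.09 ± 0.24 (SE; limma p = 0.000100, adjusted p = 0.249). Thpo (mm9 start 20725231) ran from 9 through 27.5 to 129 in High and from 30 through 120.5 to 157 in Low, a log2 difference of -1.42 ± 0.33 (SE; limma p = 0.000177, adjusted p = 0.325). For each gene 7 High mice lay below every Low mouse and the highest High mice lay among the Low mice. The genes lie on opposite strands and overlap at their 5′ ends in GENCODE M21, and no strand setting is given in the sources used here, so reads from the overlap cannot be told apart. The lower High mean held in 17 of 17 listed exons of Chrd and 7 of 7 of Thpo. The last listed exon of Chrd averaged 27.6 ± 17.1 in High and 51.6 ± 17.4 in Low (SD, n = 12), and the exon of Thpo at the other end of the pair 26.4 ± 26.6 and 63.3 ± 22.4.

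Other genes of that stretch, chosen after their values were seen as those at p under 0.01, went both ways. Polr2h, a shared RNA polymerase subunit gene that starts at 20717738, had a median of 224 in High and 394.5 in Low and a log2 difference of -0.62 ± 0.21. Vps8, a subunit gene of an endosomal tethering complex at 21423191, had medians of 816.5 and 577 and a log2 difference of 0.44 ± 0.13. Mzt2 (15848534), a gene of the gamma-tubulin complex, had medians of 543 and 308, and Alg1 (5233714), a mannosyltransferase of N-glycan assembly outside the stretch, 496.5 and 744.5. Sst (23889667), the interneuron peptide somatostatin, ran from 1119 through 1811 to 2928 in High and from 1864 through 2227 to 3353 in Low, a log2 difference of -0.40 ± 0.12 (limma p = 0.00353, adjusted p = 0.564). Sst is the 1 gene of the 18 at p under 0.01 that also had a female p under 0.05, with a female log2 difference of -0.41.

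**Figure D2:**
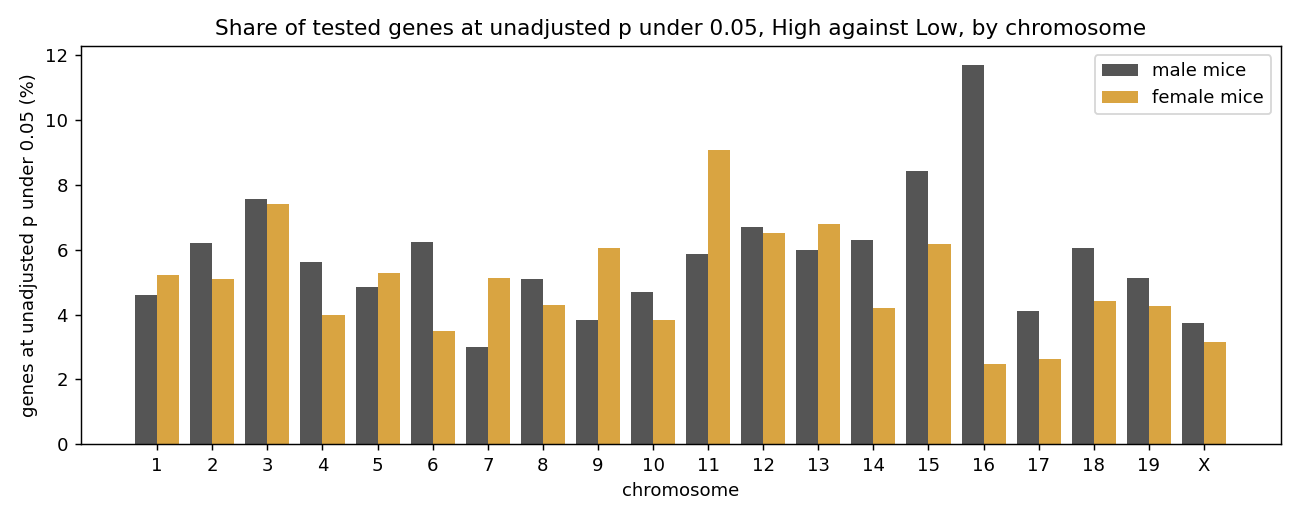
Percent of tested genes at an unadjusted p under 0.05 in High against Low, for the autosomes and the X, with grey bars for the male mice and yellow bars for the female mice. Chromosome 16 is the tallest male bar of those shown at 11.7% and stands at 2.47% in females.

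Some transcripts were close to 0 in some males and abundant in others, and these were picked out after their values were seen. The copies among them differ from their parent genes by few bases, so their sequences are shown to let a reader see how little separates their reads. Each line gives 150 bases of a transcript in GENCODE M21 (GRCm38), 5′ to 3′, from the stretch of the parent's coding bases with the most differences, and capitals mark bases that differ within the pair.
Rps6: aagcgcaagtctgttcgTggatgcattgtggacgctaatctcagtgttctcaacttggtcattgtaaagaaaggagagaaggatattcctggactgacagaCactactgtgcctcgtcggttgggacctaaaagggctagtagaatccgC
Gm8172: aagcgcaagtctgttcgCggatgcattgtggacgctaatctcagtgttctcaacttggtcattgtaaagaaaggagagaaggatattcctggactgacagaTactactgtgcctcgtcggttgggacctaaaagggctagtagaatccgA
Rps24: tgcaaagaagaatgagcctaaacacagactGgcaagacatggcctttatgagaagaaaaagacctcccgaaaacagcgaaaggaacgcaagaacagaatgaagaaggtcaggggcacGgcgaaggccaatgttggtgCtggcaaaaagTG
Rps24-ps3: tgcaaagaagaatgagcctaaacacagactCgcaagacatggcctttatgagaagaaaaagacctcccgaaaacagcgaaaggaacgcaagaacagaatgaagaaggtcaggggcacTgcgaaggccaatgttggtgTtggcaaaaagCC
mt-Co1: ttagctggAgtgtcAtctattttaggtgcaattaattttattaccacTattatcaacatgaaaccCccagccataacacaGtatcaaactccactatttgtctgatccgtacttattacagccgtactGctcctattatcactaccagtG
Gm13340: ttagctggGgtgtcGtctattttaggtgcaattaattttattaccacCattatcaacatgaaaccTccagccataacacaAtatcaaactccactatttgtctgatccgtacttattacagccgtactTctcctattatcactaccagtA
Over the whole coding part, Gm8172 differs from Rps6 at 6 of 750 bases (99.2% identity), Rps24-ps3 from Rps24 at 6 of 393 (98.5%) and Gm13340 from mt-Co1 at 37 of 1545 (97.6%). For Rps24-ps3, the differences at bases 391 and 392, the last capitals shown, lie at the very end of the Rps24 coding part used. The copy is 402 bases long and other Rps24 transcripts were not compared, so those positions may not separate reads of copy and parent. Within the bases shown, a read that covers no capital is the same in parent and copy, so values of these genes are uncertain. The bases shown hold 3 of the differences of Gm8172, 5 of Rps24-ps3 and 7 of Gm13340, and the others lie elsewhere in the coding part. These are reference sequences, and the alleles of the mice were not read.

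Gm8172, a processed pseudogene of the ribosomal protein gene Rps6, lies on the minus strand of the X chromosome at chrX:69605496-69606245 (GRCm38). It was 423 to 955 in 7 Low males, replicates 1, 2, 5, 7, 8, 9 and 12, and 0 to 4 in the other 5 Low males and in all 12 High males. No male had a value between 4 and 423. Its presence in fewer than 12 males kept it below the filter on low values, so it was not tested. Rps6, the parent on chromosome 4, ran from 2633 through 3747 to 3979 in High and from 1941 through 3040.5 to 3892 in Low. Its lowest values, 1941 and 1978, were in Low replicates 7 and 8, the mice with the highest Gm8172 of 955 and 923. Parent and copy summed to 2633 to 3980 in High and 2799 to 3892 in Low, with medians of 3747 and 3400.

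Rps24-ps3 is a processed pseudogene of the ribosomal protein gene Rps24, on the plus strand at chrX:79195047-79195448 (GRCm38). Like Gm8172 it was near 0 in more High than Low males, but here the High males were the split group. All 12 Low males had 182 to 575, while 6 High males had 134 to 276 and the other 6, replicates 1, 4, 8, 9, 10 and 12, had 4 to 14. The log2 difference was -2.34 ± 0.56 (SE; limma p = 0.000265, adjusted p = 0.325). The groups overlapped, since 5 High mice lay above the lowest Low mouse. In the females of both lines it ran from near 0 to the same heights, from 2 to 466 in High and from 4 to 461 in Low. Rps24 itself had medians of 8127 in High and 7187 in Low, of which the copy was at most 7.56% of the sum of parent and copy.

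The 3 nuclear copies of mitochondrial genes on chromosome 2 separated 4 High males from every other male. Gm13340, at chr2:22588103-22589647 (GRCm38, minus strand), was 76224 to 108224 in High replicates 2, 5, 6 and 11, 111 to 350 in the other 8 High males and 102 to 376 in the Low males. Its neighbours Gm13339 and Gm13341 were 16035 to 24842 and 21542 to 30167 in the same 4 mice and at most 82 and 121 in all others. In those 4 mice mt-Co1, which encodes cytochrome c oxidase subunit 1, was 54021 to 76875, below its range of 115491 to 171211 in the other High males and 118594 to 189631 in Low. The sum of mt-Co1 and Gm13340 ran from 115660 to 185099 in High and from 118696 to 189797 in Low, with medians of 149646 and 154142. The mitochondrial transfer RNA mt-Ty, at 4 to 12 in the same 4 High mice, was 141 to 300 in the other High and 152 to 386 in the Low mice.

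The list of mitochondrial transcripts and their nuclear copies, written with earlier results of these data known, held many small p values. Its members are not independent counts, since Gm13339, Gm13340, Gm13341, mt-Co1 and mt-Ty all separated the same 4 High mice. Of its 21 tested members 11 were at an unadjusted p under 0.05, 5 higher and 6 lower in High, against 5.71% of all genes, and 0 were called. That count was 7 to 14 when each library was left out in turn, 7 without High replicate 5. They included mt-Nd2, mt-Nd3, mt-Nd4l, mt-Nd5 and mt-Atp6, subunits of respiratory complex I and of the ATP synthase, as well as mt-Co1, mt-Ty and mt-Tw. The transfer RNA mt-Tw ran from 82 through 234.5 to 410 in High and from 225 through 365 to 502 in Low, a log2 difference of -0.71 ± 0.20 (SE; limma p = 0.00178, adjusted p = 0.504). The list of processed copies and their parents was also written with earlier results known, so its count is a description. Its 5 tested members were all at p under 0.05, against 5.71% of all genes, without a call. Pcna-ps2, a copy of the replication clamp gene Pcna, had medians of 14 in High and 34.5 in Low, and Gm8741 had 17.5 and 2.5, both with overlapping groups.

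Uty, a Y-linked gene that encodes a relative of the histone demethylase UTX, was 630 to 1058 in High replicates 2, 3, 6 and 10, 292 to 386 in the other 8 High males and 252 to 414 in the Low males. Its log2 difference was 0.48 ± 0.19 (SE; limma p = 0.0153, adjusted p = 0.729). The excess lay in 14 of 31 listed exons, those with the lowest mm9 starts (433304 to 497247), a block chosen after its values were seen. Exons were listed by start position, which need not be their order in the transcript. That block summed to 241 through 333.5 to 1023 in High and to 223 through 272 to 376 in Low, while the other 17 exons summed to 17 to 56 and 25 to 59. Kdm5d, a Y-linked histone demethylase, showed no such mice, with 309 to 473 in High and 361 to 514 in Low. Of the 4 tested genes in the Y-linked list 2 were above 0 and 2 below.

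**Figure D3:**
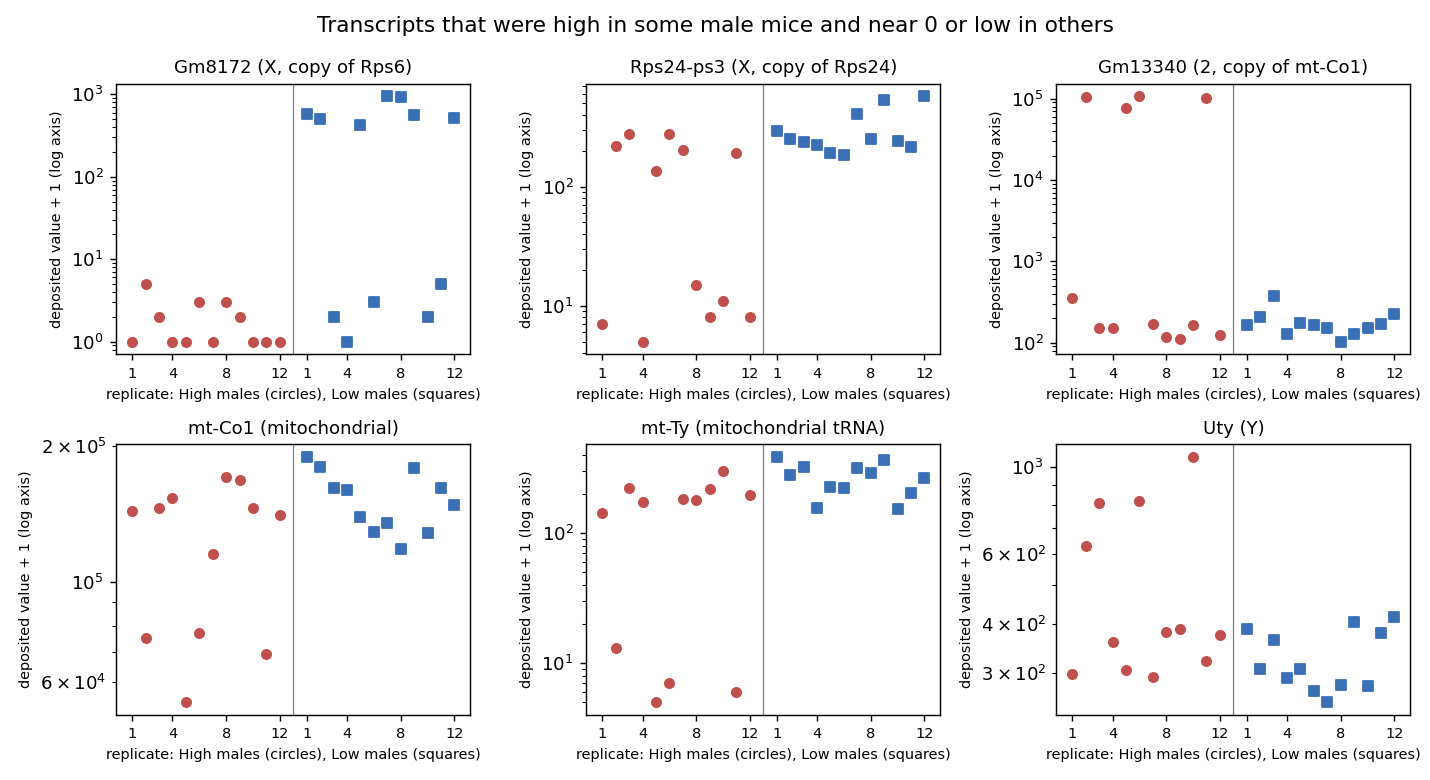
Deposited values plus 1 on log axes for 6 transcripts in each male mouse, High as circles on the left of each panel and Low as squares on the right. Gm8172 is above 400 in 7 Low males only, Rps24-ps3 is under 20 in 6 High males only, and the same 4 High males are high for Gm13340 and low for mt-Co1 and mt-Ty.

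The second question was whether individual exons shifted against the rest of their gene. By limma's diffSplice 29 of 13705 genes (0.212%) were called at an adjusted p under 0.05, and 566 (4.13%) were at an unadjusted p under 0.05. The leading exon was higher in High for 13 and lower for 16. For 18 of the 29 that exon averaged under 10 normalised counts in both groups. The test pools the spread over the exons of a gene, and with each exon's own spread 0 genes were called, with 491 at an unadjusted p under 0.05. In females 69 of 13657 genes were called, and 1 gene was called in both sexes.

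That gene was Tra2b, a splicing regulator on chromosome 16. Its exon at mm9 start 22252680 ran from 0 through 10 to 74 in High males and from 17 through 46 to 74 in Low males, while the rest of the gene averaged 1253 ± 138 and 1290 ± 154 (SD, n = 12). The exon's log2 difference against the rest was -2.74 (diffSplice adjusted p = 5.03e-11, female adjusted p = 0.0140, permutation p of the share 0.00616). The permutation was run only on the leading exon of each called gene, with no allowance for that choice, so it is no separate support. By it 28 of the 29 called genes were at p under 0.05. With the exon's own spread the adjusted p was 1.00. The High values split into 6 mice at 0 to 2, replicates 2, 3, 5, 6, 7 and 8, and 6 mice at 18 to 74, and no Low male was at 2 or less. Those 6 mice were also the 6 with the lowest Chrd among the High males and included 5 of the 6 with the lowest Thpo.

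The other exons with the smallest p were weak. The Alkbh3 exon at 93844890, in a gene of DNA alkylation repair, ran from 0 through 3.5 to 10 in High and from 3 through 10.5 to 30 in Low (adjusted p = 1.48e-08), against a rest of gene of 406 ± 79.6 and 348 ± 58.7. Tra2b stayed called when exons under 0.5 ppm were dropped. Zmynd8, Rpl27 and Rps6ka3, of a chromatin reader, a ribosomal protein and a growth-factor kinase, had exon means of 3.83 against 1.08, 2.83 against 1.08 and 4.25 against 1.58. At a pseudocount of 0.5 ppm, which keeps these exons but shrinks the differences of low values, the adjusted p was 1.09e-05 for Alkbh3 and 0.998 for each of those 3 genes. The F test per gene gave an adjusted p of 4.43e-06 for Alkbh3, 0.365 for Zmynd8, 0.00113 for Rpl27 and 0.0117 for Rps6ka3. Of 25 called genes with a female value for the exon, 19 had the same sign in females.

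The third question was how the male differences related to those in females of the same lines. Of the 841 genes at an unadjusted p under 0.05 in males, 677 (80.5%) had the same sign in females, against 8481 of 14717 (57.6%) of all tested genes, and 123 also had a female p under 0.05. In females 784 genes (5.33%) were at an unadjusted p under 0.05. Without a call in males, 1 of 14717 genes (0.00679%) was called in females: Acaca, the acetyl-CoA carboxylase gene whose product starts the making of fatty acids. Acaca ran from 247 through 280.5 to 416 in High males and from 157 through 238.5 to 369 in Low males, a log2 difference of 0.30 against 0.65 in females (female adjusted p = 0.0359, male adjusted p = 0.718). With library weights Acaca was not called in females. Of the 20 named genes 18 had the same sign in females, Sidt1 and Oaf being the exceptions, and 5 had a female p under 0.05. Rad51d had a female log2 difference of -0.55 ± 0.10 (limma adjusted p = 0.0644), larger than in males, while that of Slc38a5 was -0.09.

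The difference itself was tested with all 48 libraries. By limma 0 of 14717 genes (0%) were called for male minus female line difference, with 351 (2.38%) at an unadjusted p under 0.05. The smallest p of the genes abundant enough to name was that of Fzd2, a Wnt receptor, at 8.1e-05 (adjusted p = 1.00). Fzd2 had a median of 129 in High and 101.5 in Low males, a log2 difference of 0.22, and -0.27 in females. Kif3a, a kinesin motor subunit needed for cilia, ran from 1534 through 2629 to 3117 in High males and from 2754 through 3216.5 to 4102 in Low males. All 12 High males lay below the Low median of Kif3a and 7 below every Low male. Its female medians were 2991 and 3007, and the difference of the line effects was -0.46 (p = 0.000731, adjusted p = 1.00). Ddit4, a stress-induced inhibitor of mTOR, and Cryl1, a crystallin-related dehydrogenase, had differences of 0.36 and 0.33 between the sexes, and Sidt1 -0.90.

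**Figure D4:**
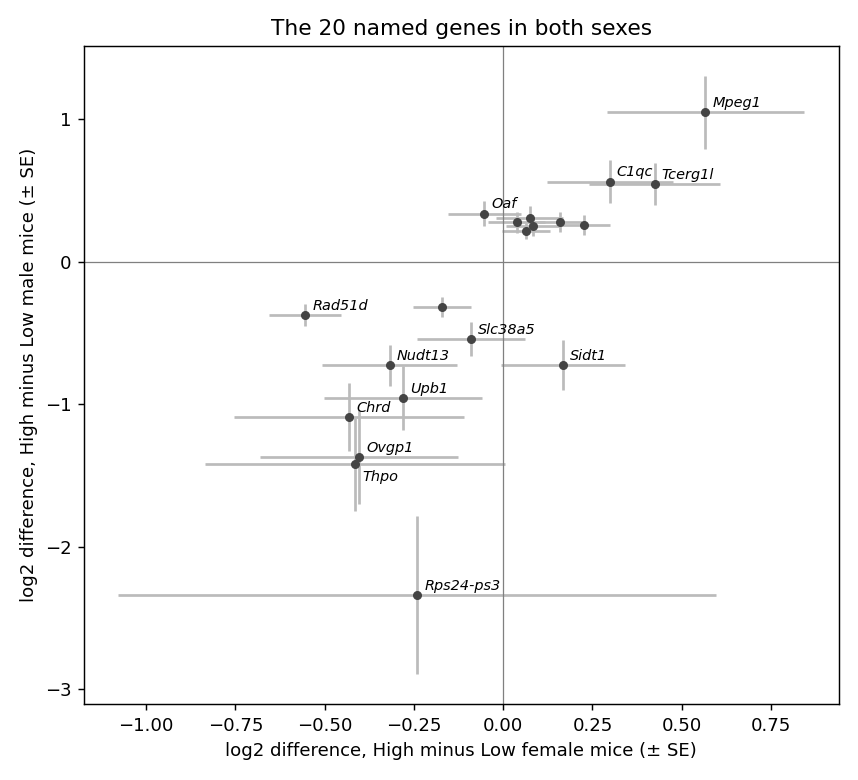
Log2 difference, High minus Low, of the 20 named genes in males (vertical axis) and females (horizontal axis), with bars of 1 SE. Sidt1 and Oaf are the points with opposite signs, and Rad51d is farther from 0 in females (-0.55) than in males (-0.37).

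Spread between mice was compared last. By limma 0 of 14717 genes (0%) were called for a difference in absolute deviation from the group median, with 450 (3.06%) at an unadjusted p under 0.05. Deviation from the group mean gave 7 calls, described below, so the absence of calls depends on the centre used. Gm13340 and Gm13339 had the smallest p among genes more variable in High (log2 deviation difference 2.98 and 2.90, adjusted p = 0.674 for each). Snord47, a small nucleolar RNA, ran from 28 to 39 in High and from 25 to 389 in Low. Hsdl1, a dehydrogenase-like gene, ran from 867 to 980 in High and from 809 to 1199 in Low.

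Gene lists were described by their counts and medians, beside 7364 of all 14717 tested genes above 0 and a median of 8.39e-05. No list had a called gene, and 0% of all genes were called. Among the neurons of the region, 8 of 10 D1 medium spiny neuron genes were above 0 in High minus Low (median 0.07), with Slc35d3, a Golgi and vesicle transporter gene, at 751.5 against 603 and Drd1, the receptor itself, at 2767 against 2475.5. Of 8 D2 genes 7 were below 0 (median -0.09), with Upb1 the only one at an unadjusted p under 0.05. The 17 shared medium spiny neuron genes had a median of -0.01. Syndig1l, a membrane protein gene of that list, had medians of 1174.5 and 1459 (limma p = 0.00409, adjusted p = 0.569). Of 9 tested genes of the shell and ventral striatum list 5 were above 0 and 4 below (median 0.03). By limma 1 of them was at an unadjusted p under 0.05, Nts, given below.

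Interneuron genes pointed in different directions. Of 14 tested, 8 were above 0 and 6 below, and 3 were at an unadjusted p under 0.05 (5 without High replicate 1). Pvalb, the calcium-binding protein of fast-spiking interneurons, ran from 28 through 107.5 to 160 in High and from 13 through 39 to 132 in Low, a log2 difference of 0.85 ± 0.30 (SE; limma p = 0.00826, adjusted p = 0.655). Sst, given above, and Npy, neuropeptide Y of the same cells, were lower in High, Npy at medians of 1191 and 1345.5. The female difference of Pvalb was -0.17. In the wider list of opioid, cannabinoid and peptide signalling 16 of 34 genes were above 0, and Nts, the peptide neurotensin, had medians of 718 and 455 at a log2 difference of 0.48 ± 0.20. Crhr2, a receptor of corticotropin-releasing hormone peptides, had medians of 23.5 and 35.5.

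Glial lists differed in direction by a small amount. Of 13 astrocyte genes 11 were above 0 (median 0.13), with Gjb6, a gap junction connexin, at 415 against 371 and Slc1a3, a glutamate transporter, at 5304.5 against 4488.5. The summed astrocyte level ran from 32615 to 49158 in High and from 33817 to 41738 in Low. In bulk tissue, fewer cells of a type and less RNA per cell cannot be told apart. Of 15 oligodendrocyte genes 12 were below 0 (median -0.10) and 0 by limma at an unadjusted p under 0.05, with Mobp, a myelin protein gene, at 1780.5 against 2132. In females 15 of 15 were below 0 and 11 at p under 0.05. All 4 tested ependyma and choroid plexus genes were above 0 (median 0.35), with Kl, the hormone co-receptor klotho, at 102.5 against 76.5 and Clic6, a chloride channel gene, at 276 against 174.5. The summed level of that list ran from 358 to 683 in High and from 228 to 656 in Low, and Ttr, the abundant choroid plexus carrier, was at 0 in 18 of 24 males and at most 3.

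Activity and stress-hormone genes lay mostly above 0. Of 21 immediate early genes 19 were above 0 (median 0.17), but 1 was at an unadjusted p under 0.05: Jun, an AP-1 subunit, at 457 against 375.5. Btg2, an antiproliferative early gene, had medians of 151.5 and 112. When each library was left out in turn the count above 0 was 19 to 21 and the count at p under 0.05 was 1 to 6. It was 2 or more without any 1 of High replicates 5, 6, 7, 8 and 10 or Low replicates 1, 5, 8, 10, 11 and 12, and 6 without Low replicate 10. In females 11 of 21 were above 0. Of 13 glucocorticoid-responsive genes 12 were above 0 (median 0.16), with Tsc22d3, known as GILZ, at a log2 difference of 0.29 and Cdkn1a, a cell-cycle inhibitor, at 0.30. In females 5 of these 13 were above 0. The difference between the sexes of neither list was tested. The 20 circadian genes had a median of -0.01, with Tef, a PAR-domain clock output factor, from 5607 through 6430.5 to 7292 in High and from 6537 through 7188.5 to 7791 in Low (limma p = 0.00728, adjusted p = 0.634).

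Lists of transmitter systems had medians close to 0, with members on both sides. The median was 0.05 over 15 genes of dopamine signalling, 0.03 over 17 GABA and glycine receptor genes, -0.04 over 28 glutamate receptor genes and 0.07 over 22 serotonin, adrenergic and cholinergic receptor genes. Drd5, a D1-like receptor, had medians of 44.5 and 28.5. Gabra3, a subunit of the GABA-A receptor, had 885.5 and 763. Pnmt, the enzyme that makes adrenaline, had 15.5 and 29, with a log2 difference of -0.52 in males and -0.94 in females. Of the glutamate receptor genes 20 were below 0, and by limma 0 were at an unadjusted p under 0.05, Grin2b, an NMDA receptor subunit, being at 109.5 against 143. In the list of synaptic vesicle and release genes 22 of 31 were above 0, which became 16 without High replicate 1. Of 37 voltage-gated channel genes 20 were above 0, with Kcnn2, a calcium-activated potassium channel, at 469 against 392.

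Metabolic and repair lists were written with earlier results of these data known, so their counts are a description. Over all genes 5.71% were at an unadjusted p under 0.05. Of 18 genes of homologous recombination and mismatch repair 9 were above 0, and 5 were at an unadjusted p under 0.05 (5.71% of all genes): Rad51c, Xrcc2, Pcna and Mlh3 were on the higher side in High and Rad51d on the lower. Rad51c ran from 40 through 49.5 to 75 in High and from 30 through 35.5 to 57 in Low. Of 20 genes of fatty acid synthesis and binding 11 were above 0 and 2 were at p under 0.05, Acaca and Fabp5. Fabp5, a fatty acid binding protein, ran from 915 through 1428 to 1734 and from 569 through 1019 to 1513, a log2 difference of 0.42 ± 0.12 (SE; limma p = 0.00149, adjusted p = 0.502). Of 10 genes of alcohol and acetaldehyde metabolism 6 were above 0, with catalase, Cat, at 431 against 356 (log2 difference 0.26 ± 0.09) and Aldh1a1, an aldehyde dehydrogenase, at 75 against 62.5. Star, the cholesterol transporter of steroid synthesis, had medians of 96 in High and 131.5 in Low, the only 1 of 12 sex steroid genes at p under 0.05. The 10 lists not described held 128 tested genes, 3 (2.34%) at p under 0.05, with medians from -0.01 to 0.05.

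**Figure D5:**
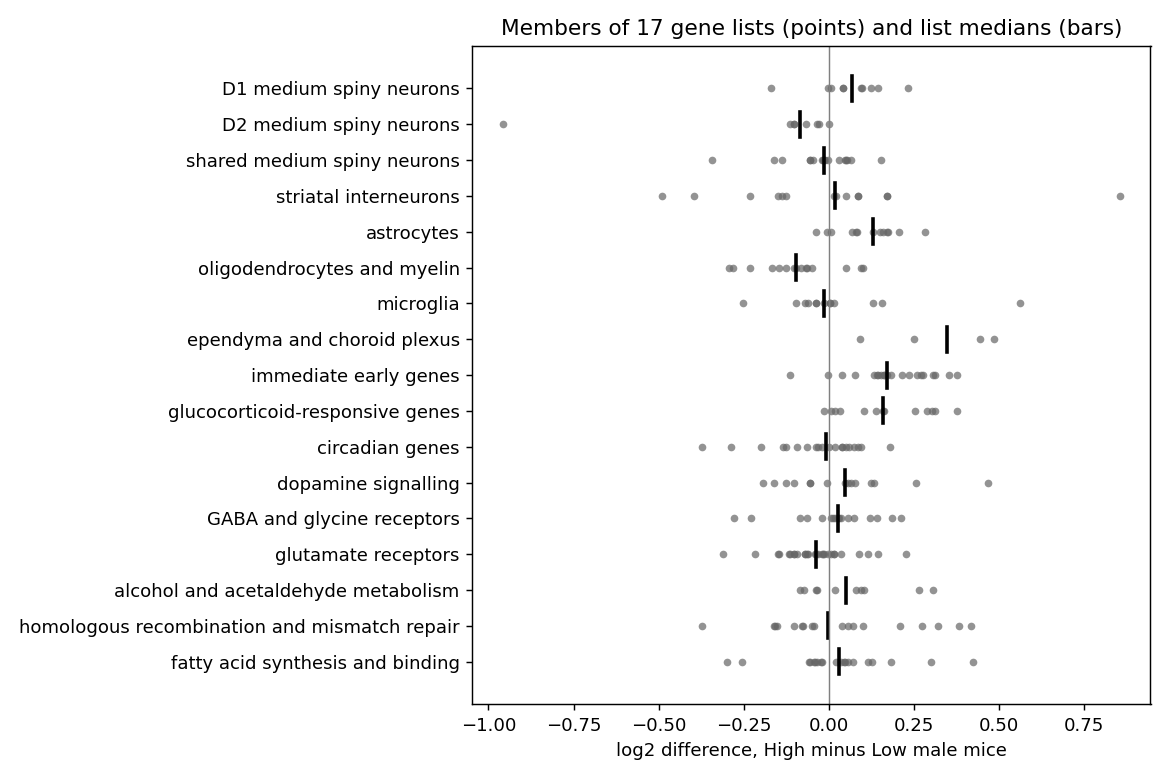
Log2 difference, High minus Low males, of the tested members of 17 gene lists, with 1 point per gene and a bar at the list median. Immediate early, glucocorticoid-responsive and astrocyte genes lie mostly right of 0, at medians of 0.17, 0.16 and 0.13, and no gene shown was called.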

How the data were processed

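Poly(A) RNA-seq of accumbens shell was taken from 24 male mice, 12 per line, and 24 females served for comparison. The deposited values are a score: counts that the authors normalised and rounded to whole numbers, for 37620 genes and 247845 exons, so no count model was fitted. The submitters' processing notes list build mm9, edgeR 3.4.2, STAR 2.4.0, CASAVA, FastQC and R 3.0.2, with no role; counter, strand and normalisation method are not given in the sources used here. Values are not per length, so they compare mice, not genes.

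Males alone were fitted with limma 3.58.1 (R 4.3.3, trend) on log2(value + 0.5 ppm), where 1 ppm is 14.1 normalised counts, for the 14717 genes that reached 1 ppm in 12 or more males. Fold changes understate those of low genes. P values were adjusted by Benjamini-Hochberg over all genes, with calls under 0.05. Exon usage used diffSplice (exons at 0.1 ppm, pseudocount 0.05 ppm, Simes p) and two-sided permutation of the exon share. The labels pair no mice, and replicate numbers are names only. Symbols came from GENCODE M21 by identifier, for 32897 genes. Members, the 36 lists (527 of 607 symbols tested) and naming rules were chosen with earlier results of these data known. Named genes were called genes at 5 ppm or more, filled to 10 per direction by p, plus up to 4 called or the 2 smallest-p members per list, 3 per direction for the sex difference, 6 for exon usage and 2 per direction for variability. Some genes that this rule selects are not reported here. The limma fits and diffSplice were tried on simulated normal values. All exons had the same spread in that simulation, so it does not bear on calls where exons differ in spread. The permutation of the exon share was not simulated. Families were not given, so mice were taken as independent.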

Additional observations from a re-analysis of the deposited data

How the results depend on the processing

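No gene was called in males under the 13 alternatives of pseudocount, filter, scaling, weighting, moderation, covariate or library set, by limma, and 0 to 4 were called when 1 library was left out, the 4 without High replicate 6. Genes at an unadjusted p under 0.05 numbered 1464 without a filter on low values (more genes tested), 1396 with library weights, and 690 to 1316 with 1 library left out, the most without High replicate 7, against 841. Library weights left 0 genes called in females. Deviation from the group mean gave 7 genes called for variability, Gm13340 and Gm13339 at an adjusted p of 1.54e-23 and Snord47 at 0.000991; the cause was not tested. The exon usage count of 29 became 6 with exons under 0.5 ppm dropped, 9 at a pseudocount of 0.5 ppm, 10 by an F test and 0 with each exon's own spread, an alternative chosen after seeing the data; 5, 9, 9 and 0 of these were among the 29. Without High replicate 1 it was 36, sharing 23.

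Of 3284 single-gene values under an alternative, 3275 kept their direction and side of the threshold. None of these genes was called in the main fits, and most alternatives share most libraries with them, so that count is a description. For the male line differences the fit without High replicate 1 was counted both as a library left out and as the library that stood apart. Nudt13, Rad51d and Ovgp1 were called without High replicate 6. With 1 library left out, the blood genes Hba-a1 (-0.0822 to 0.19) and Hbb-bt (-0.22 to 0.0334) changed sign, Hba-a1 without Low replicate 6 and Hbb-bt without Low replicate 4 or 9. Other scalings moved the median of all genes by less than 0.1. List medians near 0 changed sign with scaling for microglia, blood, peptide, interferon and repair genes. No paired analysis was possible because the labels give each mouse its own number and the replicate numbers used here pair nothing.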

Other observations

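Gapdh, a glycolytic enzyme gene chosen here after its values were seen, held the most abundant exon among those called for exon usage. Its exon at mm9 start 125113157 ran from 967 through 1850.5 to 2597 in High males and from 253 through 857.5 to 2209 in Low males, while the rest of the gene averaged 17435 ± 1897 and 16372 ± 1136 (SD, n = 12). Its diffSplice adjusted p was 0.000970, and with the exon's own spread it was 1.00. In females the exon averaged 1367 in High and 1475 in Low.

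Xist was 207 in Low replicate 1, 9 to 45 in the other Low males and 11 to 31 in High males. Ddx3y was 733 in that mouse, within the range of the other males. The lowest Ddx3y value was 377, in Low replicate 12, against 667 to 859 in the other Low males and 680 to 1016 in High males.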
